A study of Arabidopsis thaliana with 6 samples.

Results

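Actin and microtubule genes that shape the Arabidopsis trichome were followed through 7 genes, each read by a single probe set that the platform annotation assigns to that gene alone. They were picked by name and role with earlier results of these data known, so their unadjusted p-values are descriptive. Of these, 4 form the actin-nucleation arm (ARPC5, PIR121, BRK1 and SPK1) and 3 the tubulin arm (TUB6, TUA6 and TFCC), and they are 7 of the 22746 probe sets of the array that are not Affymetrix controls. RNA came from leaf hairs (trichomes) of wild-type plants and of plants carrying the gtl1-1 allele, with 3 biological replicates per genotype and therefore 6 arrays. All plants were 3 weeks old and had grown on plates with 1% sucrose in continuous light at 22 °C, and the hairs had been pulled with forceps from rosette leaves 5 and 6. GTL1 is a trihelix transcription factor that restrains the late growth of trichomes. The study compared mutant with wild-type expression, and the question asked here is whether the genes of the actin arm and those of the tubulin arm differed between the genotypes in the same way.

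A leaf trichome is a single branched epidermal cell. Microtubules set up its branches and the direction of early growth, and actin filaments then carry the stretching of stalk and branches, so that mutants of actin nucleation have distorted hairs and mutants of tubulin folding have swollen, poorly branched ones. New actin filaments are started by the ARP2/3 complex, which the SCAR/WAVE complex switches on. SPK1 (SPIKE1) acts upstream by activating ROP GTPases. Microtubules are polymers of alpha- and beta-tubulin pairs, which chaperones called tubulin-folding cofactors assemble.

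Deposited values were on the log2 scale and ran from 2.14 to 15.5. Across probe sets, Pearson's r was 0.992 to 0.996 for pairs of arrays within a genotype and 0.989 to 0.993 for pairs between genotypes. Of 13682 probe sets bright enough to test, 126 (0.921%) had an adjusted p under 0.05 for mutant against wild type in limma, a linear model across all probe sets with Benjamini-Hochberg adjustment. Without that adjustment 14.9% had a p under 0.05. GTL1 itself had 0 probe sets of its own in the annotation, so genotypes were taken from the labels and not checked on its transcript. Arrays have no read depth, and the number of arrays, 3 per genotype, limits the precision of each value. All 7 shape genes passed the filter, each above the 40th percentile of its array on 6 of 6 arrays. The adjusted test passed 0 of the 7, against the 0.921% of all tested probe sets. In such bulk RNA, a change of transcript per trichome and a change in the share of trichome cells cannot be told apart.

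In the actin-nucleation arm, transcript levels in mutant and wild-type hairs overlapped for all 4 genes, and their log2 changes (mutant minus wild type) ran from -0.24 to 0.12. Overlap was the common case, as only 2858 of all 13682 tested probe sets had non-overlapping genotypes in either direction. ARPC5 (AT4G01710, CROOKED) encodes the smallest subunit of the ARP2/3 complex. It read 8.48, 8.28 and 8.66 on the log2 scale in wild-type replicates 1, 2 and 3, and 8.63, 8.08 and 8.01 in mutant replicates 1, 2 and 3. Mutant replicates 2 and 3 lay below every wild-type array, while mutant replicate 1 lay within the wild-type range. The log2 change was -0.24 ± 0.20 (SE, n = 3 per genotype; limma adjusted p = 0.615), and its 95% interval ran from -0.71 to 0.24. With an array left out, the log2 change of ARPC5 ran from -0.43 (without mutant replicate 1) to -0.12 (without mutant replicate 3), and it was -0.14 without wild type replicate 3.

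PIR121 (AT5G18410, PIROGI or KLUNKER) and BRK1 (AT2G22640, BRICK1) are subunits of the SCAR/WAVE complex. PIR121 read 7.94, 7.75 and 7.82 in wild type and 7.84, 8.02 and 7.998 in the mutant (log2, replicates 1, 2 and 3). Here mutant replicates 2 and 3 lay above all wild-type arrays, the reverse of their order for ARPC5. The log2 change of PIR121 was 0.12 ± 0.12 (SE, n = 3 per genotype; limma adjusted p = 0.7). BRK1 read 7.88, 7.53 and 7.53 in wild type and 7.97, 7.50 and 7.24 in the mutant. Replicate 1 was the highest array of each genotype, and the mutant arrays spread over 0.728 log2 units against 0.351 in wild type. The log2 change of BRK1 was -0.07 ± 0.21 (SE; limma adjusted p = 0.902). It stood at 0.04 without wild type replicate 1 and at 0.09 without mutant replicate 3, so it has no settled direction.

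SPK1 (AT4G16340), the activator of ROP GTPases, had the smallest change of the 7 genes in this fit. It read 7.20, 6.93 and 6.87 in wild type and 7.08, 6.85 and 7.16 in the mutant (log2, replicates 1, 2 and 3). The mutant arrays spanned nearly the same levels as the wild-type arrays. Its log2 change was 0.03 ± 0.15 (SE, n = 3 per genotype; limma adjusted p = 0.948), and the sign turned when wild type replicate 2 (-0.0043) or 3 (-0.04) or mutant replicate 3 (-0.03) was left out. The 95% intervals of PIR121 and SPK1, written as folds of mutant over wild type, were 0.884 to 1.33 and 0.8 to 1.3, and those of ARPC5 and BRK1 were 0.613 to 1.18 and 0.673 to 1.34.

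**Figure D1:**
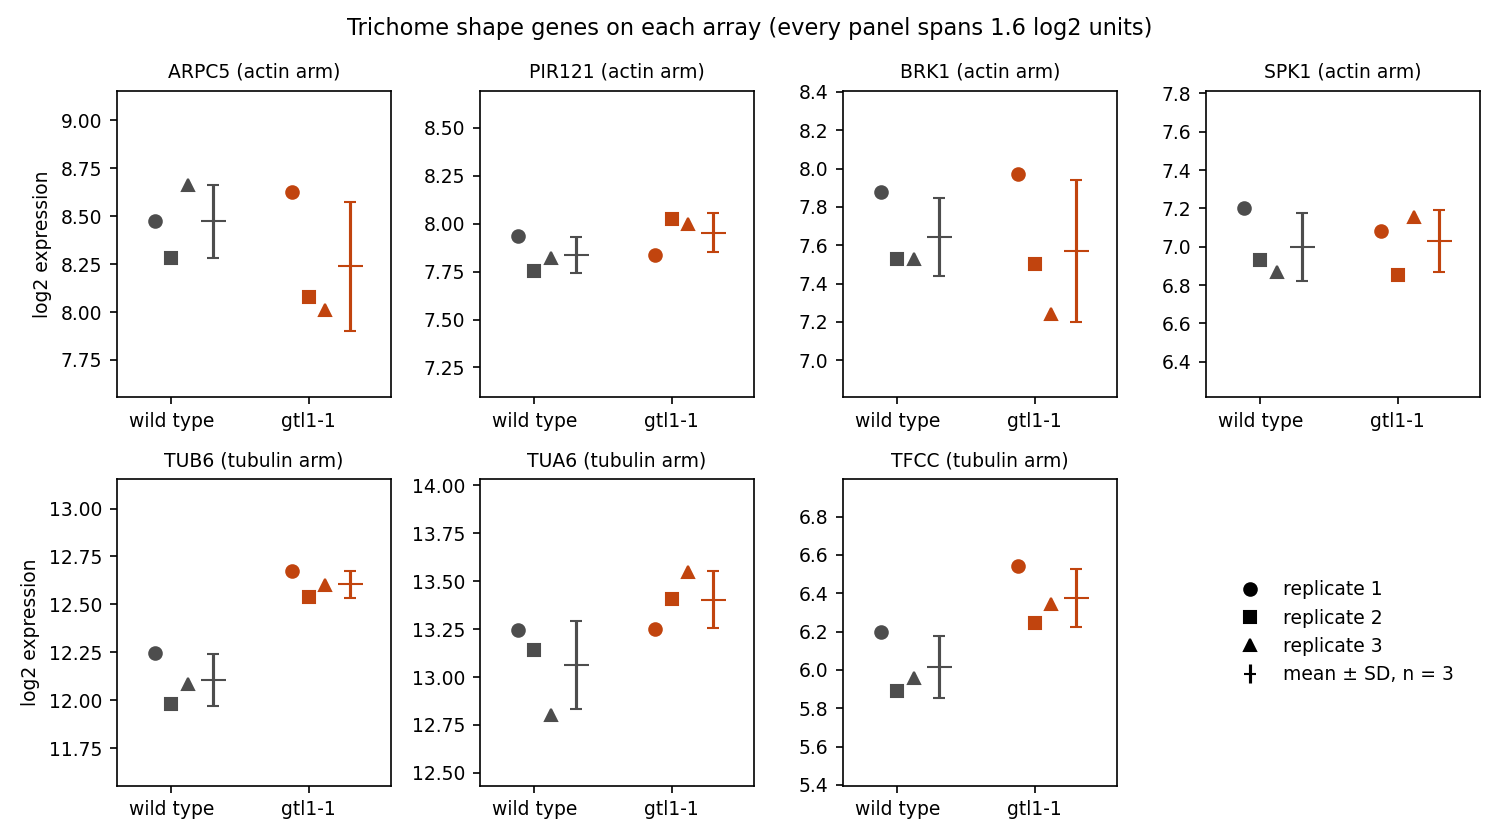
Log2 expression (vertical axes, each spanning 1.6 log2 units) of the 7 genes in wild-type and gtl1-1 trichomes (horizontal axes), with a point for each array, the symbol giving the replicate number, and bars for the mean ± SD of 3 arrays. The genotypes overlap for ARPC5, PIR121, BRK1 and SPK1 and do not overlap for TUB6, TUA6 and TFCC.

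In the tubulin arm, each of the 3 genes read higher on every mutant array than on any wild-type array, with log2 changes from 0.34 to 0.50, but none passed the adjusted test. Non-overlapping genotypes with the mutant higher were found at 10.8% of all tested probe sets. TUB6 (AT5G12250) encodes a beta-tubulin. It read 12.25, 11.98 and 12.09 in wild-type replicates 1, 2 and 3 and 12.68, 12.54 and 12.60 in mutant replicates 1, 2 and 3 (log2). The gap between the highest wild-type and the lowest mutant array was larger than the range of either genotype. TUB6 was thus 1.41-fold as high in the mutant (95% interval 1.15 to 1.74), a log2 change of 0.50 ± 0.13 (SE over 3 arrays per genotype; limma adjusted p = 0.16). Its unadjusted limma p was 0.00541. A smaller p was found at 3.37% of the tested probe sets, and a more positive change at 6.23%. Over the 14 alternative settings the adjusted p of TUB6 ranged from 0.104 to 0.389 and its log2 change from 0.44 to 0.57.

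TUA6 (AT4G14960) encodes an alpha-tubulin, the partner of beta-tubulin in the polymer. It read 13.24, 13.14 and 12.80 in wild type and 13.25, 13.41 and 13.55 in the mutant (log2, replicates 1, 2 and 3). Wild-type replicate 1 and mutant replicate 1 were nearly level, so the separation of the genotypes came from replicates 2 and 3. The log2 change was 0.34 ± 0.16 (SE, n = 3 per genotype; limma adjusted p = 0.382), and its 95% interval, -0.04 to 0.72, took in 0. The unadjusted limma p of TUA6 was 0.0716, and without wild type replicate 3 its log2 change was 0.21.

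TFCC (AT4G39920, PORCINO) is a tubulin-folding cofactor and was dimmer on the array than the 60th percentile on all 6 arrays. It read 6.20, 5.89 and 5.96 in wild type and 6.54, 6.25 and 6.34 in the mutant (log2, replicates 1, 2 and 3). The 3 differences between arrays of the same replicate number were 0.35, 0.35 and 0.38, close to each other, while the levels within a genotype spread over about 0.3 log2 units. The log2 change was 0.36 ± 0.14 (SE, n = 3 per genotype; limma adjusted p = 0.306), a 1.28-fold difference with a 95% interval from 1.01 to 1.63. Its unadjusted limma p was 0.0403. That p was under 0.05 in 7 of 13 alternative settings. Without mutant replicate 1 it was 0.124, at a log2 change of 0.28. For TUB6 the same differences by replicate number were 0.43, 0.56 and 0.51. For TUA6 they were 0.01, 0.27 and 0.74, the least even of the tubulin arm.

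Set against each other, the actin arm overlapped between genotypes and the tubulin arm did not. The separation of the tubulin arm adds nothing to the values by gene, because a mean of 3 genes that each separate must separate too. For each array, the deviation of every gene from its own wild-type mean was averaged over the arm, which avoids setting the level of a probe set against that of another. The actin arm deviated by 0.13, -0.12 and -0.02 log2 units in wild-type replicates 1, 2 and 3 and by 0.14, -0.13 and -0.14 in mutant replicates 1, 2 and 3. Its mean difference between genotypes was -0.04, well inside the spread of the arrays (SD 0.13 in wild type and 0.16 in the mutant, n = 3 each). The tubulin arm deviated by 0.17, -0.06 and -0.11 in wild type and by 0.43, 0.34 and 0.44 in the mutant. The mean difference of the tubulin arm was 0.40 (wild-type SD 0.15, mutant SD 0.06).

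The tubulin arm minus the actin arm was 0.03, 0.06 and -0.09 in wild type and 0.29, 0.46 and 0.57 in the mutant (log2, replicates 1, 2 and 3). The genotypes did not overlap in this difference, which averaged 0.44 and corresponds to a 1.36-fold shift of the tubulin arm relative to the actin arm. No p is given for it, because the genes were chosen with earlier results of these data known. It was 0.46 without SPK1, which was left out in turn because it acts upstream of both cytoskeletons, actin and microtubules. Leaving out any single gene or array kept it between 0.38 and 0.52. By replicate number, the actin arm differed by 0.0058, -0.0094 and -0.12 and the tubulin arm by 0.26, 0.39 and 0.55. The largest contrast between the arms thus lay in replicate 3 and the smallest in replicate 1.

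**Figure D2:**
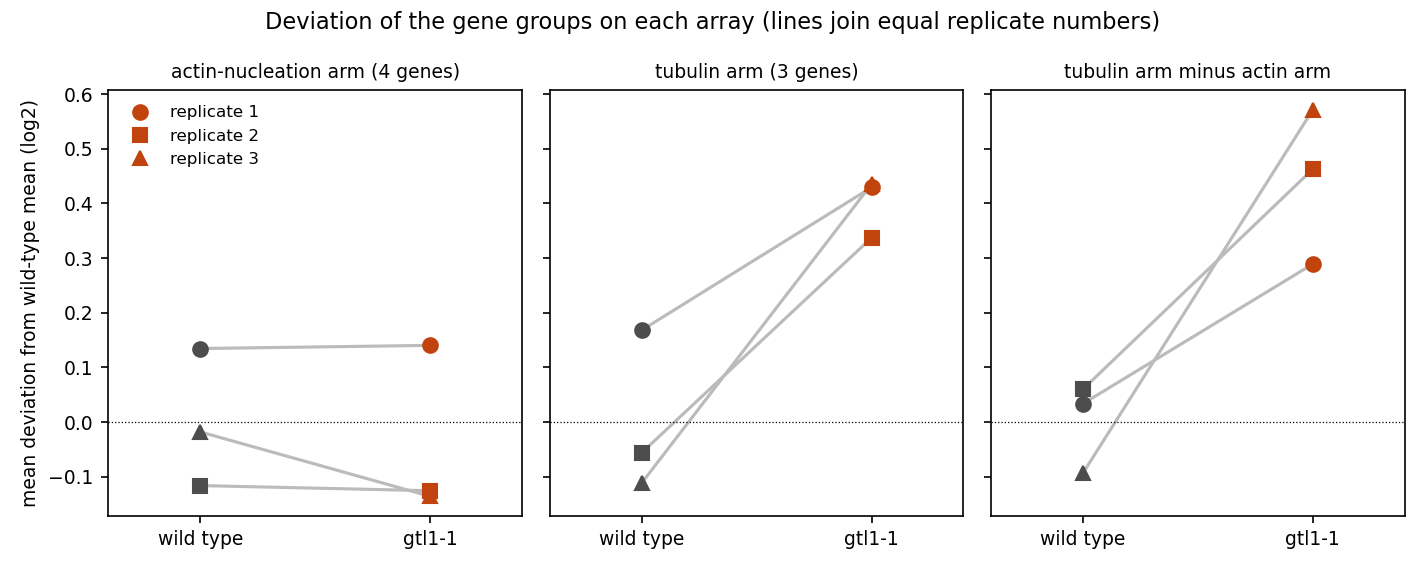
Mean deviation from the wild-type mean (vertical axis, log2) of the actin-nucleation arm, of the tubulin arm and of their difference on each of the 6 arrays, with grey lines joining arrays of equal replicate number. The actin arm overlaps between genotypes, and the tubulin arm lies between -0.11 and 0.17 in wild type and between 0.34 and 0.44 in the mutant.

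Pairs of the 7 genes differed in how closely they followed each other from array to array. Over the 6 arrays, TUB6 and TFCC had a Pearson's r of 0.951, and with the genotype means removed r was 0.943. Replicate 1 was the highest and replicate 2 the lowest array for both genes in both genotypes. TUA6 followed them over the 6 arrays (r = 0.715 with TUB6 and 0.62 with TFCC) but not once the genotype means were removed (0.107 and 0.054). In the actin arm, ARPC5 and BRK1 had an r of 0.717, while PIR121 went against both (-0.626 with ARPC5 and -0.305 with BRK1). Across the arms, ARPC5 and TUA6 had the most negative r of the 21 pairs, at -0.783. These values describe 6 arrays of a shared normalisation and carry no test.

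Other genes of the same systems were read from a list of 47 actin genes and a list of 36 microtubule genes, the shape genes included. In the annotation used, only 6 actin loci and 13 microtubule loci had a probe set naming them alone, of which 5 and 13 passed the filter. Another 2 microtubule loci were named only in probe sets of several genes, and 41 actin and 21 microtubule loci were not analysed. The annotation leaves 8730 probe sets unnamed, so these loci are not thereby shown to be absent from the array. Limma's adjusted test passed 0 of the 5 tested actin and 0 of the 13 tested microtubule genes, against 0.921% of all tested probe sets. At an unadjusted p under 0.05, 1 of 5 and 3 of 13 were higher in the mutant and 0 were lower, against 7.8% of all tested probe sets higher and 7.15% lower. Both microtubule genes beside TUB1 in that count were shape genes, and without the shape genes 1 of 10 microtubule genes and 1 of 1 actin genes (ACT11) were higher. Without wild type replicate 2 the counts of the whole lists were 0 of the actin and 1 of the microtubule genes. The median log2 change was 0.03 for the actin list and 0.22 for the microtubule list, beside -0.0070 over all tested probe sets, and it was 0.11 for the 10 microtubule genes that are not shape genes.

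Among the tubulins, 6 of 7 tested genes had a positive change, as did 48.8% of all tested probe sets. The exception was a beta-tubulin, and the 6 include TUB6 and TUA6, which were chosen with earlier results of these data known. Of the 10 microtubule genes that are not shape genes, 6 had a positive change. TUB1 (AT1G75780), another beta-tubulin, read 9.78, 9.15 and 9.34 in wild type and 10.44, 9.95 and 9.80 in the mutant (log2, replicates 1, 2 and 3). All 3 mutant arrays were above the wild-type arrays, the lowest of them by a small margin. Its unadjusted limma p was 0.025. Its log2 change of 0.64, with an SE of 0.23 and a limma adjusted p of 0.26, was the most positive of the microtubule list and stood at 0.46 without mutant replicate 1. TUB9 (AT4G20890), also a beta-tubulin, did not overlap between genotypes either, at a log2 change of 0.29 ± 0.14 (SE; limma adjusted p = 0.379).

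TUB5 (AT1G20010) stood lower in the mutant, at a log2 change of -0.43 with an SE of 0.32 and a limma adjusted p of 0.568. Its mutant replicate 1, at 8.30, stood apart from mutant replicates 2 and 3 at 9.26 and 9.59, which lay near the wild-type values of 9.73, 9.36 and 9.36. Without mutant replicate 1 the log2 change of TUB5 was -0.06. TUB7 (AT2G29550) and the alpha-tubulin TUA1 (AT1G64740) had log2 changes of 0.10 ± 0.20 and 0.22 ± 0.23 (SE), with overlapping genotypes. That of TUB7 turned to -0.10 without wild type replicate 3, and that of TUA1 ran from 0.10 without wild type replicate 1 to 0.45 without wild type replicate 3.

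Of the remaining microtubule genes, the folding cofactor TFCE (AT1G71440, PFIFFERLING) had a log2 change of 0.29 with an SE of 0.22 and a limma adjusted p of 0.566. Its mutant replicates 2 and 3 read 6.87 and 6.93 and its mutant replicate 1 read 6.17, below all wild-type arrays (6.27 to 6.50), and the log2 change was 0.54 without mutant replicate 1, 0.19 without mutant replicate 2 and 0.16 without mutant replicate 3. AN (ANGUSTIFOLIA), which acts in trichome branching, stood at 0.12 ± 0.14 (SE), and at 0.01 without mutant replicate 3 and 0.20 without mutant replicate 2. SPR1 (SPIRAL1), a microtubule-associated protein, stood at -0.0077 ± 0.12 and lay between 11.88 and 12.03 on all 6 arrays. The loci AT2G46600 and AT5G17410, to which the reference gives no name, had log2 changes of -0.43 ± 0.26 and -0.05 ± 0.15 (SE), not called by limma. That of AT2G46600 was -0.16 without wild type replicate 3.

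In the actin list, ACT11 (AT3G12110), an actin gene, was the only tested gene beside the shape genes. It read 10.72, 10.34 and 10.37 in wild type and 11.41, 10.89 and 10.93 in the mutant (log2, replicates 1, 2 and 3). The genotypes did not overlap, and replicate 1 was again the highest array of each. The log2 change was 0.60 ± 0.19 (SE, n = 3 per genotype; limma adjusted p = 0.221), or 1.52-fold with a 95% interval from 1.11 to 2.07. Its unadjusted limma p was 0.0153. Whether ACT11 differed from the actin-nucleation arm was not tested. ACT12 (AT3G46520) did not pass the filter and lay near the lowest value of the data on each array, between 2.15 and 2.29.

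**Figure D3:**
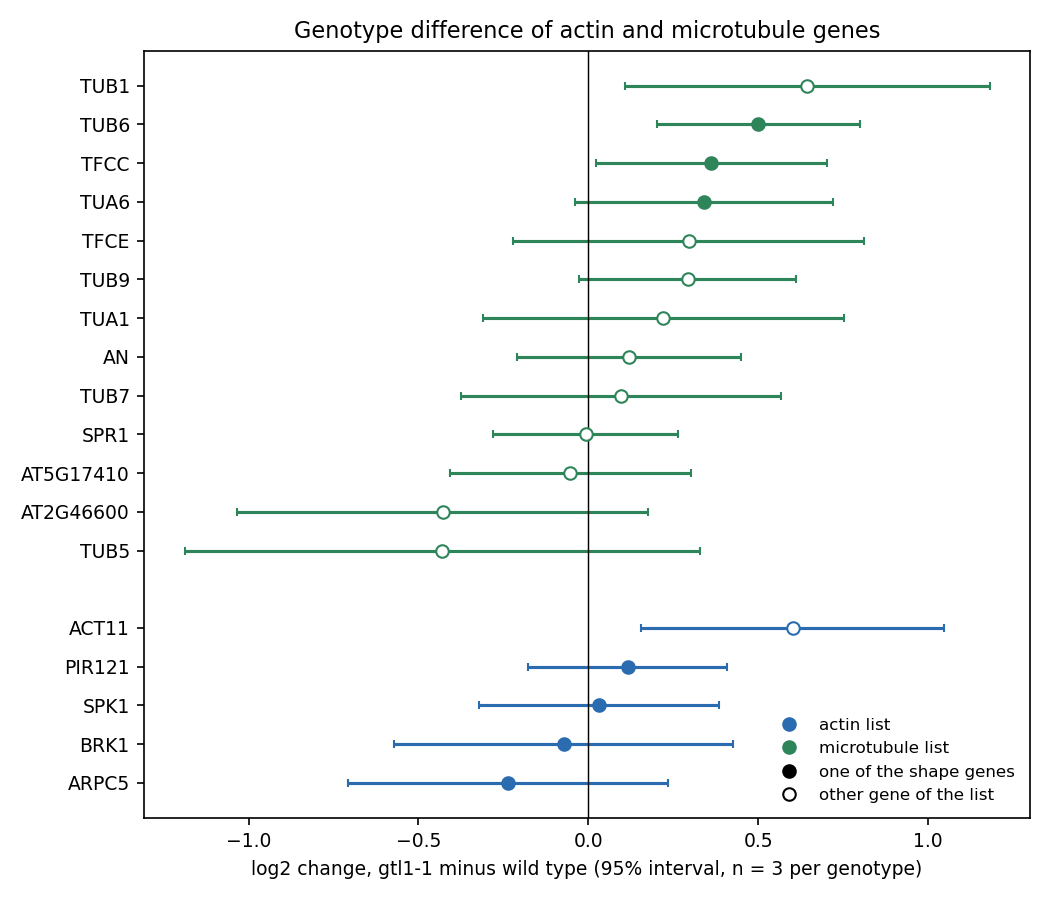
Log2 change of mutant minus wild type (horizontal axis) with its 95% interval from limma for the 18 tested genes of the actin and microtubule lists, with 3 arrays per genotype; filled points are the shape genes. The intervals of TUB1, TUB6, TFCC and ACT11 lie above 0, and all others include 0.

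**Figure D4:**
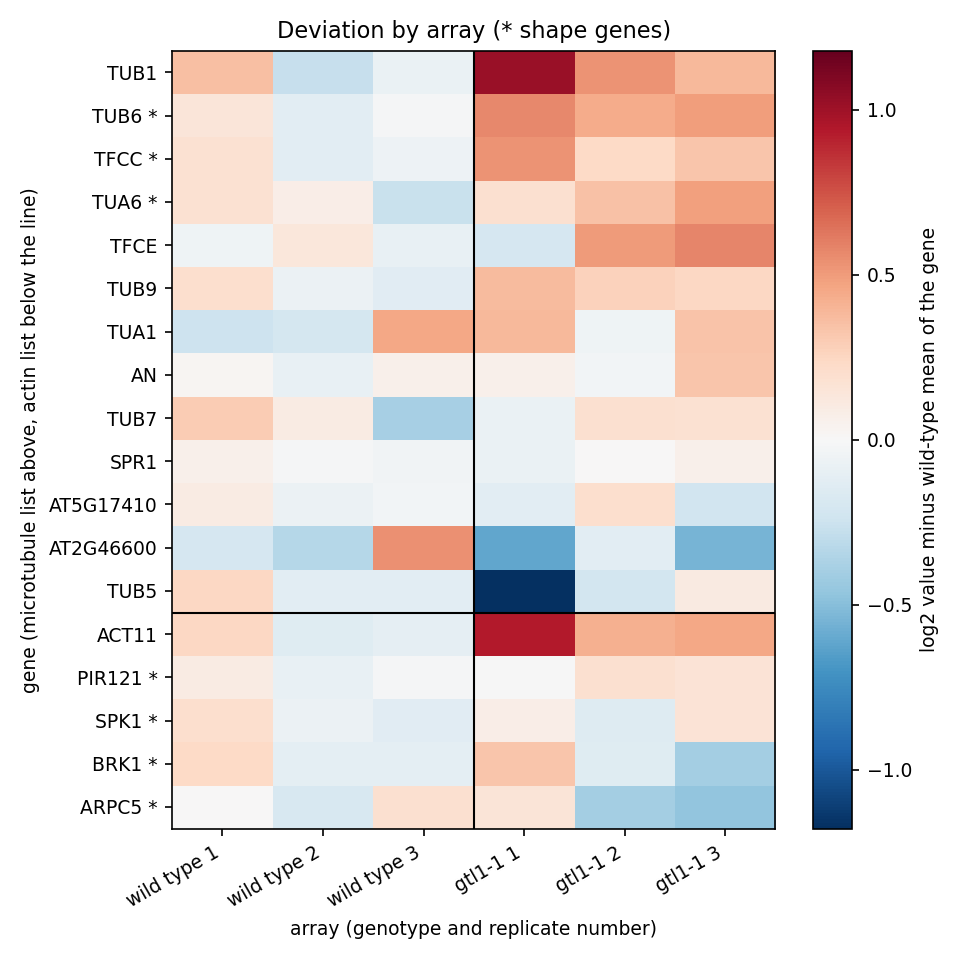
Log2 value minus the wild-type mean of the gene (colour) for the same 18 genes (rows) on the 6 arrays (columns). TUB6, TFCC, TUA6, TUB1, TUB9 and ACT11 are above their wild-type mean on all 3 mutant arrays, and mutant replicate 1 is the extreme array for TUB1, ACT11 and TUB5.

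The genes outside the 7 whose values over the 6 arrays most resembled the mean of the tubulin arm were AT2G21300, AT4G31340 and AT5G43310, with Pearson's r of 0.994, 0.993 and 0.991. For the actin arm they were AT4G37820, AT1G11900 and AT4G30400, with r of 0.982, 0.98 and 0.974. An r over 0.9 was reached by 473 tested probe sets (3.46%) for the tubulin arm and by 87 (0.636%) for the actin arm.

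Markers of several cell types were read, each only where a probe set of the annotation used names it alone. Of 12 trichome genes, 4 had a probe set of their own (TRY, BLT, SIM and AT5G06700, TRICHOME BIREFRINGENCE), and all 4 lay above the 40th percentile on 6 of 6 arrays. The summed linear signal of the 4, on the log2 scale, was 12.5 to 12.8 in wild type and 12.8 to 13.2 in the mutant. Of these, AT5G06700 did not overlap between genotypes, at a log2 change of 0.34 ± 0.13 (SE). The other trichome markers overlapped, with log2 changes of -0.99 ± 0.50 for TRY, -0.10 ± 0.20 for BLT and 0.12 ± 0.23 for SIM (SE). Of 7 mesophyll genes, 5 had a probe set and all 5 were bright, with a log2 sum of 14.7 to 15.3 in wild type and 14.6 to 14.8 in the mutant. LHCB4.2, a light-harvesting protein, had a log2 change of -0.99 with an SE of 0.26 and a limma adjusted p of 0.171. That of LHCB4.1 was -0.39 ± 0.15 (SE), and the genotypes overlapped for neither gene. Non-overlapping genotypes with the mutant lower were found at 1379 of all 13682 tested probe sets. RCA, SBPASE and PRK had log2 changes within 0.0543 of 0. Of 5 stomatal genes 3 had a probe set, with a log2 sum of 6.52 to 7.45 in wild type and 6.36 to 6.86 in the mutant, with SPCH not overlapping at a log2 change of -0.55 ± 0.27 (SE). FMA overlapped at 0.21 ± 0.33 (SE), and MUTE did not pass the filter. The phloem gene SWEET11, 1 of 3 listed, read 3.86 to 5.35 and 4.88 to 5.43. None of these markers was at the floor of 2.14. The 5 mesophyll genes, SPCH, FMA and SWEET11 also lay above the 40th percentile on 6 of 6 arrays. That level thus does not separate trichomes from other cells. The part of mesophyll RNA in the higher tubulin values was not tested.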

How the data were processed

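RNA from trichomes of 3 wild-type and 3 gtl1-1 replicates was read on Affymetrix arrays after 3′ labelling, per the labels' protocols. The authors deposited a table of log2 values. It came from GCRMA, per the submitters' processing notes, with its version not given in the sources used here. This method removes background estimated from probe sequence, equalises the arrays by quantiles and gives a single summary per probe set, and it presses dim signals onto a floor. No header states the log2 scale, which follows from the range of the values.

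The table held 22810 probe sets, of which 64 controls were left out. Of the rest, 13513 name 1 gene in the platform annotation, 503 several and 8730 are unnamed here, and 13436 of the first were matched to a locus. The test took probe sets over the 40th percentile of the array (3.51 to 3.60) on at least 3 of 6 arrays. Genotypes were compared with limma 3.58.1 (lmFit, eBayes, two-sided) in R 4.3.3, adjusted by Benjamini-Hochberg over all tested probe sets. The code was also run on simulated data. The changes planted there were larger than any of the 7 members, so that run does not tell whether changes of their size could be called. Named genes were the 7 members, all tested genes of the actin and microtubule lists, and the 3 genes most like each arm. Members and lists were chosen with earlier results of these data known.

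Arrays of the same replicate number deviated from their genotype means with correlations of 0.127, 0.275 and 0.118, all over 0.1. Arrays of unlike number had correlations from -0.212 to 0.0873, the highest not far below 0.118. By the rule used here the numbers pair the arrays, on this evidence only, as the labels do not say what a number marks. All reported errors, intervals and p-values still come from the fit without the block, and the block was an alternative. In the fit with this block the call of each of the 7 genes was the same, and 68 probe sets were called rather than 126. Its unadjusted limma p was 0.00884 for TUB6, 0.113 for TUA6 and 0.0293 for TFCC. The alternatives were other filters, normalisations, variance models, a floor, the block and leaving out each array or member. Promoter motifs were not analysed here. Averaging several probe sets of a member was not run, as each has 1.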

Additional observations from a re-analysis of the deposited data

How the results depend on the processing

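For the 7 shape genes, limma called 0 under each of the 14 alternative settings (TFCC did not pass the filter at the 60th percentile, which left 13 for it), and the lowest adjusted p was 0.104, for TUB6. The tubulin arm minus the actin arm stayed within 1 SD of its main value of 0.441 in 21 of 21 settings (0.376 to 0.517). That SD, 0.116, is the pooled SD of this difference between arrays of a genotype. Several settings could not move the arm difference. The filters, the variance model and the replicate block do not enter it, a common median cancels in it, and the floor lay below all 7 genes. The number of the 7 genes at an unadjusted limma p under 0.05 was 2 (TUB6 and TFCC), beside 14.9% of all tested probe sets. TFCC gave way to TUA6 with the variance trend and robust estimation, and to ARPC5 without mutant replicate 1, where the count was again 2. This count was 1 with the filter at the 60th percentile, where TFCC was not tested, 1 with array weights and 3 with quantile normalisation. It ran from 1 to 2 when an array was left out. The count of called probe sets was 126 in the main setting, 8 with no filter, 68 with the replicate block, between 31 and 81 when an array was left out, and between 113 and 178 in the other settings. The replicate block changed 0 calls among the 18 listed genes tested. Limma called 0 genes of either list in all 14 settings, and at an unadjusted p under 0.05 there were 1 actin and 3 microtubule genes in the main setting and 0 to 2 and 1 to 4 over the alternatives. These counts were 0 and 1 without wild type replicate 2, 1 and 1 with array weights, and 2 and 2 without mutant replicate 1.

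The changes nearest 0 turned sign. That of SPK1 was -0.0518 with array weights and ran from -0.0356 to 0.13 when an array was left out, and that of BRK1 from -0.272 to 0.0918. In the lists, the change of SPR1 was 0.0199 with quantile normalisation and 0.01999 with a common median and ran from -0.041 to 0.0298 with an array left out. That of TUB7 was -0.0338 with array weights and ran from -0.101 to 0.245, and that of AT5G17410 ran from -0.177 to 0.036. The cause was not tested. Precision is limited by 3 arrays per genotype, and for ACT12 by its signal near the floor.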
